A study of Rattus norvegicus with 8 samples.

Results

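The transferrin receptor and the genes of cellular iron handling were examined in the remaining kidney of the rat after removal of the other kidney. The set holds 10 genes, which were Tfrc, Tf, Steap3, Slc11a2, Slc40a1, Cp, Fth1, Ftl1, Aco1 and Ireb2, out of 14400 genes with a symbol on the array. Every non-control probe whose RefSeq accession belongs to 1 of these genes was taken, which gave 18 of 41012 probes. The genes were chosen with the comparison of the groups already known, so their values are given as a description with no test. Right kidneys came from female rats of the F344/NSlc strain, 10 weeks old, with 4 in the nephrectomized group, in which 1 kidney had been removed, and 4 in the sham-operated group. The design text puts sampling at 2 days for both groups, while the source names give 2 days for the nephrectomized kidneys and 1 day for the sham kidneys, and if the source names hold, day and operation cannot be told apart. The labels list separate samples without naming animals, and p-values reflect only how these samples vary.

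Cells take up iron mainly as transferrin, the plasma carrier of iron encoded by Tf, which binds the transferrin receptor Tfrc at the cell surface and enters by endocytosis. Inside the endosome the reductase Steap3 converts the iron to its ferrous form and the transporter Slc11a2 moves it to the cytosol, where it is used, stored in ferritin made of Fth1 and Ftl1 chains, or exported by ferroportin, encoded by Slc40a1. The iron regulatory proteins Aco1 and Ireb2 bind iron-responsive elements in mRNAs when iron is scarce, which stabilises the Tfrc mRNA and blocks translation of the ferritin mRNAs. In the kidney, tubule cells also recover filtered transferrin through megalin and cubilin, and dividing cells of many kinds carry more transferrin receptor.

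The region just upstream of Tfrc is shown because Tfrc was the member with the largest difference between the groups. It holds the 250 bases before the annotated start, read 5′ to 3′ on the minus strand at chr11:81690319-81690568 of GRCr8, from RefSeq. The capitals mark ACGTG, a form of the core of the site that hypoxia-inducible factors bind, and TGACGT, the core of the cyclic AMP response element.
Tfrc: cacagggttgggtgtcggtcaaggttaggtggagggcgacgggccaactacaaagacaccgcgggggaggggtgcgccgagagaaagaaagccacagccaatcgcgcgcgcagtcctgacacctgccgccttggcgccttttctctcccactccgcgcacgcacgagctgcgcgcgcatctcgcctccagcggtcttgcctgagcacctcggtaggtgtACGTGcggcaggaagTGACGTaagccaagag
ACGTG lay at bases -31 to -27 and TGACGT at bases -16 to -11 counted back from the start, both on the strand of the gene and without overlap. Both strands were searched for these letters and for the GC box GGGCGG and the E-box CACGTG, and the motifs were picked with this sequence in view. RefSeq promoter entries matched 8 of the 10 members, which left out Fth1 and Ftl1. Among those 8, only Tfrc held ACGTG and only Tfrc held TGACGT, 5 held GGGCGG and 0 held CACGTG. The form GCGTG of the hypoxia core was not searched for, so these counts do not cover it. Of all 33469 upstream windows of this length, 16.6% held ACGTG, 6.95% held TGACGT, 30.5% held GGGCGG and 5.59% held CACGTG. A match of letters is a description and does not show that a factor binds there.

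All values below are log2 signals relative to the array's 75th percentile, so 1 unit is a doubling, and differences are nephrectomized minus sham. Between 59.5% and 66.1% of the probes of an array were well above background, 0 were saturated, and the 75th percentile signal lay between 388 and 643. Pairs of arrays correlated across their probes, which do not replicate each other, at 0.986 to 0.993. The arrays lay on 2 slides that were scanned in separate sessions, each with 2 nephrectomized and 2 sham arrays, and position on the slide cannot be told apart from group. All 10 kidney markers were well above background on all 8 arrays, and 0 of them was called different by limma, with 1 higher and 0 lower at an unadjusted p under 0.05. Over all features 1.04% were called in either direction, so 0 of 10 is near that share. Umod, the urine protein of the thick ascending limb, differed by 0.03 ± 0.14 (SE, limma adjusted p = 0.940), and Slc34a1, the phosphate transporter of the proximal tubule, by -0.16 ± 0.08 (SE, limma adjusted p = 0.347). Calb1, a calcium-binding protein of the distal tubule named after its values were seen, gave 0.46 ± 0.09 (SE, limma adjusted p = 0.0519) without overlap, and it was called higher in 4 of the 21 alternatives, with limma adjusted p between 0.0230 and 0.532 over them. All 18 probes of the iron-handling genes passed the filter of being well above background on at least 4 arrays, and all 10 genes entered the fit. In whole kidney RNA, fewer cells of a type and less RNA per cell cannot be told apart.

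Tfrc, the receptor, was higher in the remaining kidney after nephrectomy. Its probe of highest signal read 2.97, 2.72, 2.90 and 2.75 in nephrectomized kidneys, against 1.18, 1.16, 1.66 and 1.70 in sham kidneys. The groups did not overlap, and the 4 nephrectomized arrays lay within a narrower band than the 4 sham arrays. The means were 2.84 ± 0.12 in nephrectomized kidneys and 1.42 ± 0.30 in sham kidneys (SD, n = 4 each). The difference of 1.41 ± 0.14 (SE) is a 2.66-fold higher signal. Across all 20935 features tested, 56 had a larger positive difference, and the median difference was 0.01.

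**Figure D1:**
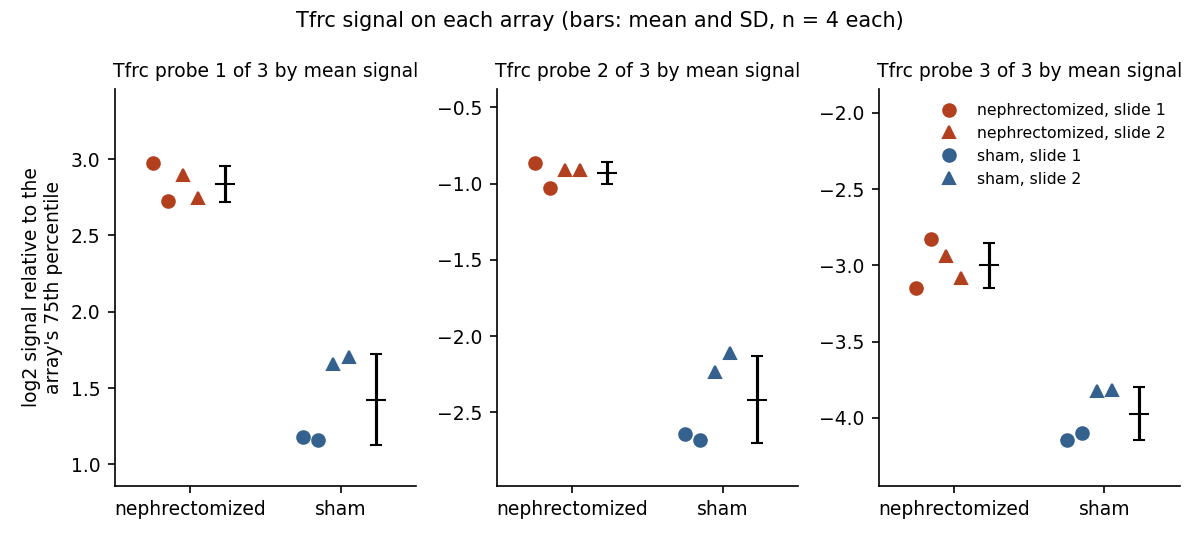
Log2 signal of the 3 Tfrc probes relative to the array's 75th percentile (vertical axis) on each of the 4 nephrectomized arrays, at left, and the 4 sham arrays, at right, with bars for the group mean and SD. Every nephrectomized array lies above every sham array in each panel, and the fitted differences are 1.41, 1.49 and 0.97.

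The other Tfrc probes ran the same way. The second probe, which has 10 spots on each array, read -0.87, -1.03, -0.91 and -0.91 in nephrectomized kidneys, against -2.64, -2.68, -2.24 and -2.11 in sham kidneys. Its difference was 1.49 ± 0.13 (SE), a 2.80-fold higher signal, and log2 values of its spots on 1 array spread with an SD between 0.051 and 0.208. The third and dimmest probe read -3.15, -2.83, -2.94 and -3.08 in nephrectomized kidneys, against -4.14, -4.10, -3.83 and -3.81 in sham kidneys. It was well above background on 4 of 4 nephrectomized arrays and 2 of 4 sham arrays, and its difference was 0.97 ± 0.11 (SE), or 1.96-fold. The groups did not overlap for any of the 3 probes. Normexp background correction left the brightest probe at 1.39 but put the second at 1.05 and the dimmest at 0.40.

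The sham arrays of the second slide gave more Tfrc signal than those of the first. On the brightest probe this gap was 0.51 among sham arrays, while among nephrectomized arrays it was -0.03, and the second probe gave 0.49 and 0.03 for the same gaps. The median absolute gap of this kind among sham arrays was 0.09 over all features. Within slides, the difference between nephrectomized and sham kidneys on the brightest probe was 1.68 on the first slide and 1.14 on the second. Each slide holds the groups in equal numbers, so the slide as a block gives the same difference by construction. Over the alternatives that keep all 8 arrays it lay between 1.29 and 1.41, and with 1 array left out between 1.32 and 1.50.

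Of the 10 members, 1 was called higher (Tfrc) and 0 lower by limma at an adjusted p of 0.05, and at an unadjusted p under 0.05 the counts were 2 and 0. Over all features 1.04% were called, 0.75% higher and 0.287% lower, and 3358 of 20935 had an unadjusted p under 0.05 in either direction. The groups did not overlap for 1 member, Tfrc, while over all features they did not overlap for 11.1%, made up of 7.06% higher and 4.07% lower. Because the members were chosen from this comparison, nothing is read from these counts. The differences of the 10 genes ran from -0.27 to 1.41 with a median of 0.04, and 6 were above 0, beside a median of 0.01 and 52.5% above 0 over all features. By slide the median of the members was 0.14 on the first and 0.0081 on the second.

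**Figure D2:**
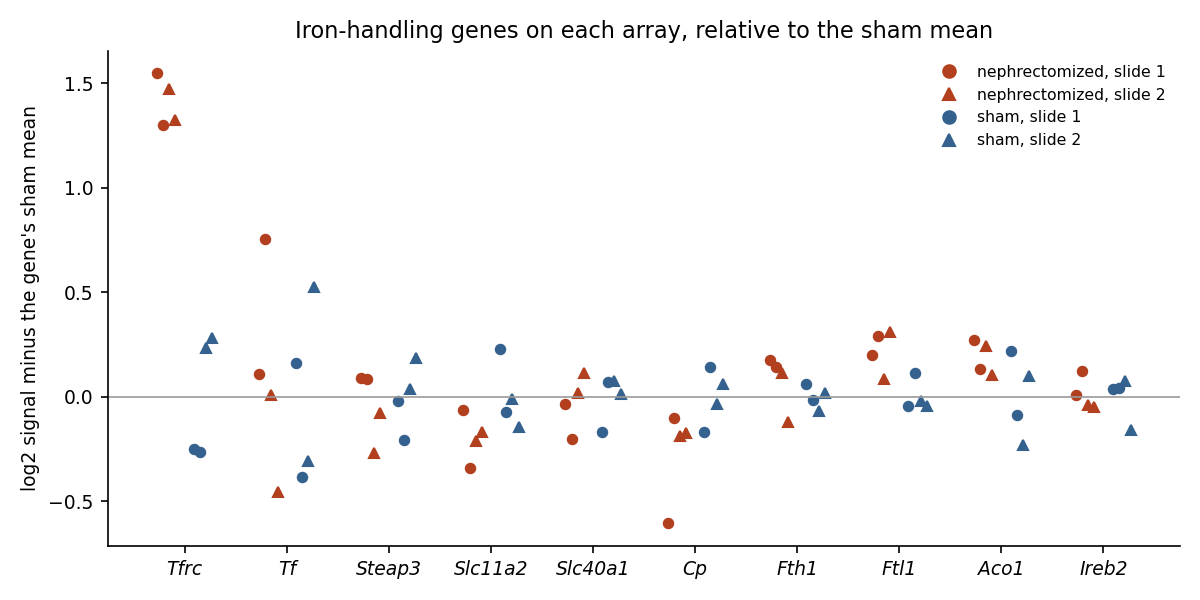
Log2 signal of each of the 10 iron-handling genes, by its brightest probe, minus the mean of its 4 sham arrays (vertical axis), for the 4 nephrectomized arrays and the 4 sham arrays. Tfrc is the only gene whose groups do not overlap, and Tf has the widest spread within each group.

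The ligand Tf varied widely within both groups. It read 0.67, 1.31, 0.57 and 0.10 in nephrectomized kidneys, against 0.72, 0.18, 0.25 and 1.09 in sham kidneys. The highest and the lowest arrays were both nephrectomized, so the sham values lay inside the nephrectomized range. The means were 0.66 ± 0.50 in nephrectomized and 0.56 ± 0.43 in sham kidneys (SD, n = 4 each), and the difference was 0.10 ± 0.28 (SE). It was 0.54 on the first slide and -0.34 on the second, and it fell below 0 without nephrectomized replicate 2, at -0.11, or without sham replicate 2, at -0.024. Transferrin is made mainly in the liver. Of 10 hepatocyte markers, 4 were well above background often enough to be tested, and Apoa2, Ttr, Serpina1 and Ahsg were not well above background on any array. The summed signal of the tested hepatocyte markers, relative to the 75th percentile, was 2.18 to 2.56 in nephrectomized kidneys and 2.02 to 2.60 in sham kidneys. Most of that sum came from the fibrinogen chains Fgb, which averaged 0.39 and 0.14 in nephrectomized and sham kidneys, and Fga, at -0.09 and 0.15. The sum therefore mainly follows these genes and is not by itself a measure of liver RNA. Neither tested fibrinogen chain was called, with Fgb at 0.25 ± 0.10 (SE, limma adjusted p = 0.260) and Fga at -0.25 ± 0.16 (SE, limma adjusted p = 0.508).

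Steap3, the endosomal ferrireductase, read -2.59, -2.60, -2.95 and -2.76 in nephrectomized kidneys, against -2.70, -2.89, -2.64 and -2.50 in sham kidneys. The groups overlapped over most of their range, with a difference of -0.04 ± 0.11 (SE) that was 0.20 on the first slide and -0.28 on the second. Slc11a2, the endosomal and apical importer of ferrous iron also called DMT1, read 3.72, 3.45, 3.58 and 3.62 in nephrectomized kidneys, against 4.01, 3.72, 3.78 and 3.64 in sham kidneys. Only the highest nephrectomized array reached into the sham range. Its difference was -0.20 ± 0.10 (SE), and it was -0.28 on the first slide, -0.11 on the second and -0.12 without sham replicate 1. The second Slc11a2 probe averaged 0.98 ± 0.08 in nephrectomized and 1.03 ± 0.03 in sham kidneys (SD, n = 4 each), a difference of -0.05 ± 0.06 (SE).

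Slc40a1, or ferroportin, the known cellular iron exporter, averaged 1.89 ± 0.13 in nephrectomized kidneys and 1.91 ± 0.11 in sham kidneys (SD, n = 4 each), with a difference of -0.03 ± 0.09 (SE). Its second probe gave 0.01 ± 0.10 (SE). Cp encodes ceruloplasmin, the copper ferroxidase that oxidises iron as it leaves the cell. Cp read -1.80, -1.30, -1.38 and -1.36 in nephrectomized kidneys, against -1.36, -1.05, -1.23 and -1.13 in sham kidneys. The groups overlapped through the lowest sham array, and nephrectomized replicate 1 stood lowest of all. The difference was -0.27 ± 0.12 (SE), and -0.15 without nephrectomized replicate 1.

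The ferritin light chain Ftl1 had a higher mean after nephrectomy on all 4 of its probes, by less than the Tfrc difference. The brightest Ftl1 probe read 9.29, 9.38, 9.17 and 9.39 in nephrectomized kidneys, against 9.04, 9.20, 9.06 and 9.04 in sham kidneys. Only sham replicate 2 lay within the nephrectomized range. The difference was 0.22 ± 0.07 (SE), or 1.17-fold, at 0.21 on the first slide and 0.23 on the second. It moved to 0.10 with normexp and to 0.023 with quantile normalization. The third probe read 8.23, 8.20, 8.31 and 8.14 in nephrectomized kidneys, against 7.83, 8.03, 7.62 and 7.90 in sham kidneys, and here the groups did not overlap. Its difference was 0.37 ± 0.09 (SE), or 1.29-fold, while the second probe gave 0.31 ± 0.10 and the dimmest 0.25 ± 0.11 (SE each). All 4 differences were above 0 under each scaling.

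Fth1, the ferritin heavy chain with the ferroxidase centre, differed less. It read 7.52, 7.48, 7.46 and 7.22 in nephrectomized kidneys, against 7.40, 7.32, 7.27 and 7.36 in sham kidneys. The lowest array of all was nephrectomized replicate 4, and the difference was 0.08 ± 0.08 (SE), or 0.15 without that array and 0.046 without nephrectomized replicate 1. The second Fth1 probe gave 0.05 ± 0.08 (SE), which turned to -0.015 with quantile normalization. Ferritin genes have near-identical copies, and how far the probes tell them apart could not be checked from the files, so the ferritin signals are uncertain in that respect. Signal on an array shows mRNA, and ferritin is controlled largely at translation.

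For both iron sensors the groups overlapped. Aco1, the cytosolic aconitase that turns into an iron regulatory protein when it loses its iron-sulphur cluster, read 5.54, 5.40, 5.51 and 5.37 in nephrectomized kidneys, against 5.49, 5.18, 5.03 and 5.37 in sham kidneys. Only sham replicate 1 lay within the nephrectomized range, and the difference was 0.19 ± 0.10 (SE), or 0.11 without sham replicate 3. Ireb2, the other iron regulatory protein, averaged -3.01 ± 0.08 in nephrectomized and -3.02 ± 0.11 in sham kidneys (SD, n = 4 each), a difference of 0.01 ± 0.07 (SE).

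Within the groups, pairs of members correlated in both directions. After each group's mean was subtracted, Pearson correlations of Tfrc with the other members over the 8 arrays ran from -0.51 with Ftl1 to 0.50 with Steap3. Over all pairs of members they ran from -0.79, for Slc11a2 with Cp, to 0.69, for Tf with Fth1. These are descriptions over arrays that share slides and scaling.

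Genes whose log2 signal followed the brightest Tfrc probe most closely over the 8 arrays were Mvk, with r = 0.983, Mkks and Epha4, with 0.979 each, Tuba4a, with 0.974, and Tamm41, with 0.972, among 10223 named features. Mvk encodes mevalonate kinase of sterol synthesis and was 0.42 ± 0.06 (SE) higher after nephrectomy, and Epha4, an ephrin receptor, was 0.94 ± 0.10 (SE) higher. Because Tfrc separates the groups, such a ranking favours genes that differ between them. With group means subtracted, the closest were Tmem35a, with 0.990, Trim63, with 0.925, Ppp3ca, with 0.922, Zfp68, with 0.920, and Fbxo16, with 0.917. None of the 5 genes of this list stands in the earlier one. All 5 read higher in the sham arrays of the second slide than in those of the first, as Tfrc did. In this ranking the slide gap and a shared course cannot be told apart. Without subtraction, r with Tfrc was 0.961 for Tmem35a, 0.640 for Trim63, 0.860 for Fbxo16, -0.612 for Ppp3ca and -0.698 for Zfp68.

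Proliferation markers differed alongside Tfrc. Of 13 on the array, 12 were tested, 6 rose by limma and 12 did not overlap between the groups, with a median difference of 1.50. Over all features 0.75% were called higher and 7.06% were higher without overlap. E2f1, a transcription factor of entry into S phase, was 1.84 ± 0.22 higher (SE, limma adjusted p = 0.0151). Mcm6, at 1.56 ± 0.20 (SE, limma adjusted p = 0.0176), and Mcm3, at 1.41 ± 0.19 (SE, limma adjusted p = 0.0199), are parts of the replicative helicase. With 1 array left out, 10 of the 12 proliferation markers were called higher without nephrectomized replicate 1, 1 without nephrectomized replicate 2, 2 without nephrectomized replicate 4, 0 without nephrectomized replicate 3, and 0, 0, 1 and 2 without sham replicates 1 to 4, while in each of these fits 12 had an unadjusted p under 0.05. The mean log2 signal of the list was -1.12, -0.09, -0.58 and 0.27 in nephrectomized replicates 1 to 4, against -2.05, -2.04, -1.74 and -1.79 in sham replicates 1 to 4. Nephrectomized replicate 1 had the lowest of the 4 nephrectomized means and the highest signal of the brightest Tfrc probe. Nephrectomized replicate 4 had the highest mean and the second lowest signal of that probe. The second Tfrc probe also read highest in replicate 1, at -0.87, against -1.03, -0.91 and -0.91 in nephrectomized replicates 2 to 4. On the dimmest Tfrc probe, replicate 1 was instead lowest, at -3.15, against -2.83, -2.94 and -3.08 in nephrectomized replicates 2 to 4. The summed signal of the markers was 10.7 to 25.4 in nephrectomized kidneys and 6.72 to 7.65 in sham kidneys, and each marker was well above background on at least 1 array. Their part in the Tfrc difference was not tested.

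**Figure D3:**
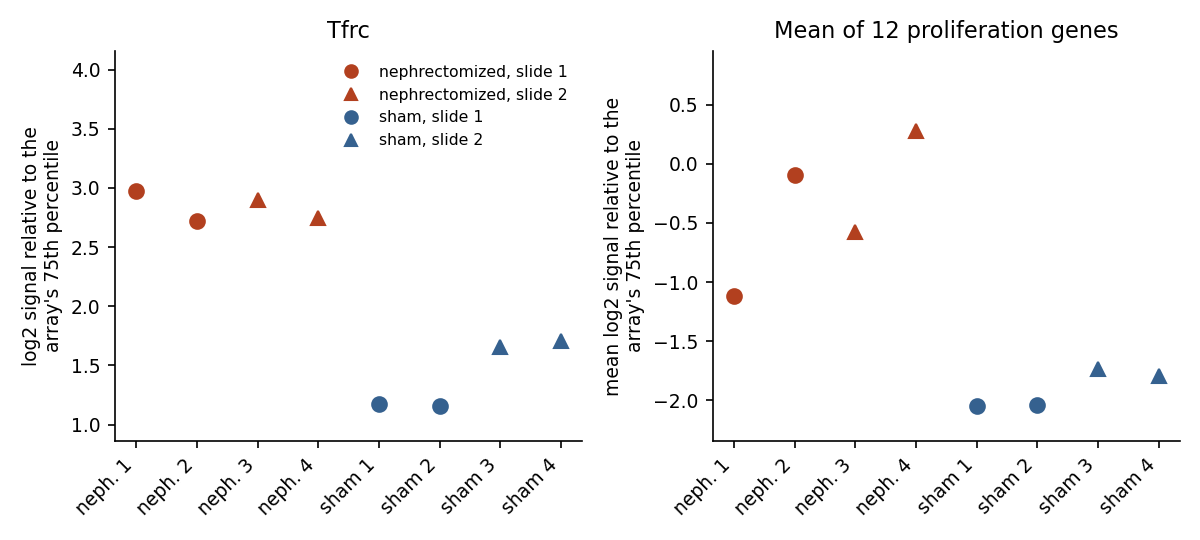
Log2 signal of the brightest Tfrc probe and the mean log2 signal of the 12 tested proliferation markers (vertical axes) on each of the 8 arrays, nephrectomized arrays first. Tfrc stays between 2.72 and 2.97 across the nephrectomized arrays while the proliferation mean runs from -1.12 to 0.27.

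Red cell precursors and macrophages also carry much transferrin receptor or iron. Of 10 erythroid markers on the array, 5 were tested, and their median difference was -0.06. Of these 5, 2 were above 0, both named after their values were seen. They were Hbb, at 0.19 ± 0.16 (SE, limma adjusted p = 0.60), and Alas2, at 0.16 ± 0.16 (SE, limma adjusted p = 0.674). The red cell membrane genes Epb42 and Rhag were not well above background on any array. The summed erythroid signal was 18.3 to 21.5 in nephrectomized kidneys and 19.9 to 24.8 in sham kidneys. Most of that sum came from Slc4a1, which averaged 3.78 in nephrectomized and 3.92 in sham kidneys. The sum therefore mainly follows this gene and is not by itself a measure of red cell content. All 8 tested of 10 macrophage markers had differences below 0, with a median of -0.12. Of these 8, 1 was called lower, beside 0.287% over all features, of which 52.5% were above 0. Adgre1, a surface receptor of macrophages, fell by 0.51 ± 0.09 (SE, limma adjusted p = 0.0476), and this call was lost whichever array was left out, at limma adjusted p between 0.0683 and 0.134. The summed macrophage signal was 21.9 to 25.9 in nephrectomized kidneys and 24.7 to 26.6 in sham kidneys, with Vsig4 not well above background on any array. The part of these cells in the differences of the iron genes was not tested.

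Of 108 other genes of iron and haem handling listed for comparison, 93 were on the array and 87 were tested. Among the 87, 1 rose and 0 fell by limma, and at an unadjusted p under 0.05 the counts were 9 and 9. That unadjusted threshold was passed by 3358 of all 20935 features, in either direction. The groups did not overlap for 11 that were higher and 5 that were lower. Over all features 1.04% were called, and 7.06% were higher and 4.07% lower without overlap, so the count called among these genes was near the background. Their median difference was 0.02, with 47 above 0.

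**Figure D4:**
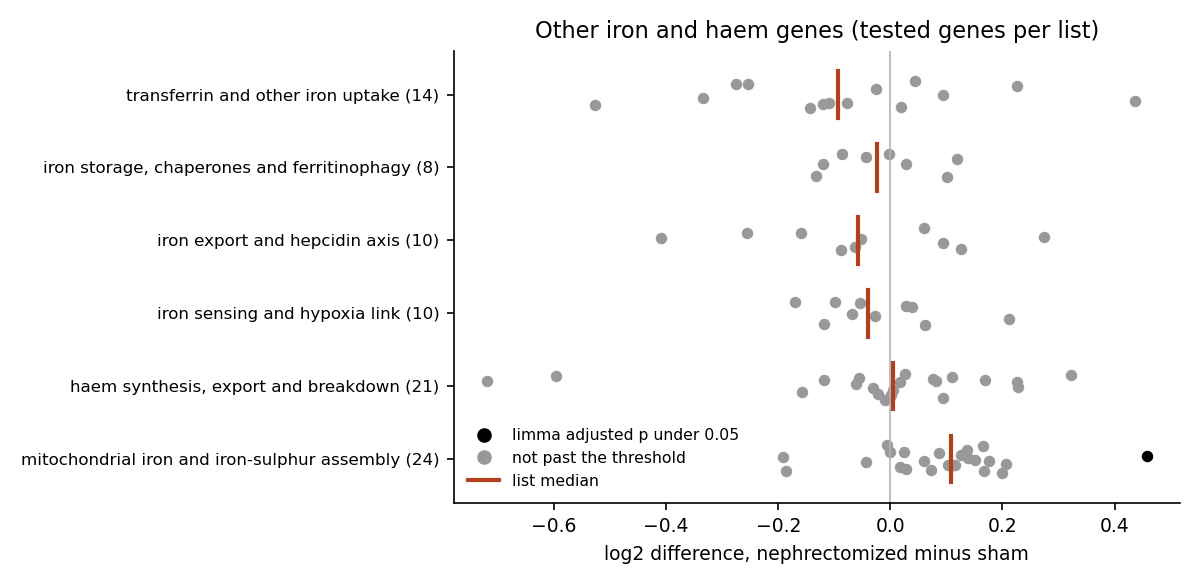
Log2 difference, nephrectomized minus sham (horizontal axis), of each of the 87 tested iron and haem genes in 6 lists. Bola3, at 0.46, is the only gene past the limma threshold, and Hmox1, at -0.72, lies lowest.

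Among other genes of iron uptake, 14 of 18 were tested, 0 were called, with 0 higher and 3 lower at an unadjusted p under 0.05, and the median was -0.09. Lrp2, or megalin, differed by -0.14 ± 0.10 (SE, limma adjusted p = 0.547), and Amn, the partner of cubilin, by 0.02 ± 0.09 (SE, limma adjusted p = 0.941). Tfr2, the second transferrin receptor, and Hfe, its partner in iron sensing, were not well above background on any array. Steap4, a metalloreductase of the Steap3 family picked after its values were seen, gave -0.53 ± 0.13 (SE, limma adjusted p = 0.0943) with no overlap between groups.

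Storage and chaperone genes showed 0 calls among 8 tested, with 0 at an unadjusted p under 0.05 and a median of -0.02. Glrx3, a cytosolic glutaredoxin, gave 0.10 ± 0.06 (SE, limma adjusted p = 0.458), and Pcbp2, which can deliver iron to ferritin, -0.04 ± 0.10 (SE, limma adjusted p = 0.869). The export and hepcidin list had 0 calls among 10, with 0 higher and 2 lower at an unadjusted p under 0.05, and a median of -0.06. Smad7, an inhibitor of hepcidin signalling, gave -0.26 ± 0.10 (SE, limma adjusted p = 0.281) and Furin, a protease that processes hepcidin, 0.06 ± 0.08 (SE, limma adjusted p = 0.750).

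The sensing and hypoxia list also had 0 calls among 10, with 0 higher and 1 lower at an unadjusted p under 0.05, and a median of -0.04. Skp1, of the ligase that degrades Ireb2, gave 0.03 ± 0.07 (SE, limma adjusted p = 0.884) and Zfp36l1, an mRNA decay factor, -0.10 ± 0.07 (SE, limma adjusted p = 0.548). Among haem genes 0 of 21 were called, with 4 higher and 3 lower at an unadjusted p under 0.05. Alad, the second enzyme of haem synthesis, gave -0.06 ± 0.07 (SE, limma adjusted p = 0.706) and Pgrmc1, a haem-binding membrane protein, -0.03 ± 0.09 (SE, limma adjusted p = 0.912).

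Hmox1, the haem oxygenase that frees iron from haem, was picked after its values were seen. It read -1.45, -1.60, -1.60 and -1.65 in nephrectomized kidneys, against -0.49, -0.77, -1.02 and -1.14 in sham kidneys, with no overlap between the groups. Its difference of -0.72 ± 0.13 (SE) had a limma adjusted p of 0.0519, and over the alternatives this p lay between 0.0235 and 0.483. Alas1, the first enzyme of haem synthesis outside red cells, also picked after its values were seen, gave 0.32 ± 0.08 (SE, limma adjusted p = 0.0857).

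The list of mitochondrial iron and iron-sulphur assembly had 24 tested genes, of which 19 were above 0, with a median of 0.11 that was 0.10 on the first slide and 0.09 on the second. In this list 1 gene rose, Bola3, which helps pass iron-sulphur clusters to mitochondrial enzymes, and 5 were higher and 0 lower at an unadjusted p under 0.05. The groups did not overlap for 7 that were higher and 0 that were lower. Over all features 0.75% were called higher, 7.06% were higher without overlap and 52.5% were above 0. Bola3 read 3.93, 3.81, 3.93 and 3.98 in nephrectomized kidneys, against 3.45, 3.50, 3.41 and 3.46 in sham kidneys. All nephrectomized arrays lay above all sham arrays. The difference was 0.46 ± 0.06 (SE, limma adjusted p = 0.0160), or 1.37-fold. The call was lost when any sham array or nephrectomized replicate 3 or 4 was left out, at limma adjusted p between 0.0524 and 0.0678.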

How the data were processed

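Total RNA from right kidneys was labelled with Cy3 and hybridised to 1-colour Agilent rat arrays, per the labels' protocols, and, per the file headers, Agilent Feature Extraction 10.5.1.1 quantified the images. Per array the authors deposited a processed signal, a linear intensity corrected for background and not scaled between arrays, beside median spot and background intensities and flags of 0 or 1. The authors' deposited series table has log2 values; against the scanner values they correlated above 0.999 with a slope of 1.00, so they are on the 75th percentile scale with each probe's median over the arrays subtracted. Its column medians were 0.00116, 0.0122, -0.000822 and 0.0154 for nephrectomized and -0.0145, -0.00235, -0.000988 and -0.00954 for sham replicates 1 to 4.

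From the processed signal, log2 values minus each array's 75th percentile were computed. Of 45018 spots, 1639 control spots and those marked as outliers were dropped, and repeated spots of a probe were averaged. Probes well above background on at least 4 of 8 arrays were kept (25250, of which 25228 were complete), and a gene was taken by its probe of highest mean, giving 20935 features. Symbols came from RefSeq accessions matched to RefSeq genes of GRCr8, for 18713 of 41012 probes. The headers name another assembly, and coordinates are given only for the RefSeq upstream window. The comparison used lmFit and eBayes of limma 3.58.1 (R 4.3.3) without covariates, with 6 residual and 2.37 prior degrees of freedom. P-values were adjusted by Benjamini-Hochberg across the 20935 features, and calls were made at 0.05. The steps were tested on simulated data. The number of arrays limits the precision.

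The members, gene lists, markers and motifs were chosen with earlier results of these data known. Named are all members, up to 3 called genes of each list or else its 2 brightest, and the 5 features closest to Tfrc by each correlation; genes outside this rule are marked in the text. Alternatives were normexp on median signals with an offset of 50, other scalings, filters and probe rules, trend and robust variance, slide and replicate blocks, single slides, the deposited table and leaving out each array. Listed genes that are not on the array were not analysed here. The result of 1 marker gene is not reported here.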

Additional observations from a re-analysis of the deposited data

Results flagged for a closer look

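In 98 groups of 4 arrays checked for a lone high or low array, 5 had a gap to the nearest array, as a share of the group's range, above Dixon's critical value, and chance gives about 1 in 20. The brightest Ftl1 probe read 9.20 in sham replicate 2, against 9.04 to 9.06 in the other sham arrays (0.855). Ireb2 read -3.17 in sham replicate 4, against -2.98 to -2.94 in the others (0.834). Adgre1 read -0.81 in sham replicate 1, against -0.66 to -0.63 (0.868), and the macrophage list mean was 0.35 there, against 0.54 to 0.57 (0.876). The haem list mean was 1.38 in nephrectomized replicate 1, against 1.35 in the other nephrectomized arrays (0.888).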

How the results depend on the processing

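The Tfrc difference, which chose the gene, was 1.68 within slide 1 and 1.14 within slide 2. Over all features, 157 were called higher and 60 lower. Normexp gave 202 and 55, and quantile normalization 154 and 76. The counts were 17 and 3 without a filter on dim probes, 295 and 99 for probes well above background on all 8 arrays, 398 and 132 with trend and robust variance, and 69 and 31 with the slide as a block. With the replicate number as a block they were 6 and 4. Within slide 1 they were 0 and 0 (1882 at an unadjusted p under 0.05) and within slide 2 also 0 and 0 (1742). Leaving out 1 array gave 18 to 162 higher and 4 to 35 lower, the lowest without sham replicate 2 and the highest without nephrectomized replicate 1.

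Of the members, 1 was called higher, and 0 with the replicate block or within either slide (2, 1 and 1 at an unadjusted p under 0.05). Of the other iron genes, 1 was called higher. That count was 0 without the filter, with the replicate block and within each slide, 2 with trend and robust variance, and 0 to 1 with 1 array left out, where 6 to 11 had an unadjusted p under 0.05. The 0 called lower became 1, Hmox1, with the filter on all 8 arrays, with trend and robust variance and with the slide block. Of the markers, 6 were called higher and 2 lower. With normexp these were 10 and 1, without the filter 0 and 0, with the slide block 3 higher, with every probe on its own 1 lower, and 0 and 0 with the replicate block and within each slide. Leaving out 1 array gave 0 to 10 higher and 0 to 1 lower. Across the alternatives, 12 to 15 markers were higher and 2 to 5 lower at an unadjusted p under 0.05. Single slides and left-out arrays give the fit fewer samples, and the blocks leave it fewer residual degrees of freedom. Without the filter 35202 features were tested, against 20935 with it. Beyond this the cause was not tested.

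Uncalled genes near 0 changed sign, members among them. With 1 array left out, Steap3 ran from -0.11 to 0.033, Slc40a1 from -0.081 to 0.033, Ireb2 from -0.042 to 0.036 and Tf from -0.11 to 0.29. Normexp gave Steap3 0.016, and quantile normalization gave Ireb2 -0.0034. Within slides, Tf was 0.54 and -0.34, Steap3 0.20 and -0.28, Slc40a1 -0.071 and 0.020, and Ireb2 0.025 and -0.0040. Quantile normalization gave Amn -0.022, Skp1 -0.015 and Umod -0.057, and normexp gave Skp1 -0.11 and Umod -0.063. Slide 1 gave Amn -0.034 and Furin -0.059, and slide 2 gave Pgrmc1 0.077, Umod -0.17 and Zfp36l1 0.0068. With 1 array left out, Amn ran from -0.045 to 0.058, Pcbp2 from -0.11 to 0.014, Pgrmc1 from -0.10 to 0.033, Skp1 from -0.0044 to 0.060 and Umod from -0.049 to 0.17. Same-numbered nephrectomized and sham arrays deviated together with correlations of 0.141, 0.0111, -0.0574 and -0.209, and not every array correlated best with its own number. The samples were taken as sharing only a number. Correlations after group means are subtracted cannot exclude a pairing.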
